A study of Mus musculus with 4 samples.

Results

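The genes described here serve the meeting of sperm and egg and the start of development that follows: Cd9, Cd81, Folr4, Astl, Itpr1, Stim1, Orai1 and Camk2g. They were picked by name for these roles, and 8 of the 25587 genes listed for the libraries are in the group. Folr4 is the older symbol of the gene for Juno. RNA-Seq was carried out on mouse oocytes at 4 points of follicle growth, with 1 library per stage made from pooled oocytes. All oocytes were Wild-type, on the C57BL/6 background (from C57BL/6Babr mice, by the protocol), and no treatment is given in the labels. Non-growing oocytes (NGOs) came from mice at 5 days post partum (dpp), growing oocytes from mice at 8 to 14 dpp (GO1) and at 15 dpp (GO2), and fully grown oocytes (FGOs) from mice at 20 dpp. Libraries of NGOs and FGOs followed a dUTP protocol, whereas GO1 and GO2 were prepared with ScriptSeq. Stage and protocol therefore cannot be told apart between these pairs, so a change is the later over the earlier library made the same way, FGOs over NGOs or GO2 over GO1.

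Egg and sperm fuse after Izumo1 on the sperm binds Juno, a receptor held on the egg membrane by a lipid anchor, and the tetraspanins Cd9 and Cd81 organise the egg membrane at which fusion takes place. The sperm then triggers repeated release of calcium through inositol trisphosphate receptors. Stim1 and Orai1 belong to machinery by which cells refill the store from outside, and its use in these oocytes was not tested. The calcium signal frees the contents of the cortical granules, among them ovastacin, the Astl protease that hardens the zona pellucida, and drives the egg out of meiosis through the CaMKII kinase of which Camk2g encodes the gamma form.

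The values are RPKM, read numbers per kilobase of exon relative to a library total, and counts recovered from them summed over genes to 61681463 for NGOs, 71903698 for GO1, 133082137 for GO2 and 69031978 for FGOs. At 3 counts, the minimum for calling a gene detected, a gene with 1 kb of exon would stand at 0.0271 RPKM in NGOs and 0.0124 RPKM in GO2, the deepest library. Intervals in brackets are 95 % Poisson intervals of the counts for levels and 95 % binomial intervals for changes. They cover counting error only, since no molecular identifiers are described and reads may repeat a molecule. The libraries were sequenced from both ends, and the recovered counts outnumber the read pairs mapped in each library, so the counts are not independent and the intervals are too narrow. Separate intervals were found for 18 of 24 neighbouring levels of the 8 genes, for 18 with the counts divided by 2 and for 17 with the counts divided by 4, alternatives added after seeing the data. No test was possible because each stage had 1 library. RPKM is a share of the RNA in a library, so a change in transcripts per oocyte cannot be read from it. All 10 oocyte markers looked at, among them Gdf9, Zp3 and Nlrp5, were detected in all 4 libraries, beside 59.6 % of all genes, with summed levels of 4425, 3203, 3222 and 3633 RPKM from NGOs to FGOs.

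All 8 genes were detected at every stage, as were 59.6 % of all listed genes, and their levels spanned a wide range. In NGOs the highest was Astl at 342.9 RPKM and the lowest was Cd81 at 2.8 RPKM. In FGOs the same genes stood at the ends, Astl at 286.5 RPKM and Cd81 at 0.3425 RPKM. Folr4 held position 6 of the 8 in NGOs and position 4 in FGOs, where it stood above Itpr1 and Orai1.

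From NGOs to FGOs, 1 of the 8 genes was at least 2-fold higher, Folr4, beside 17.7 % of the 15269 genes that had 20 counts or more over both libraries. At least 2-fold lower was also 1 gene, Cd81, beside 16.8 % of all genes. The median log2 change of the 8 genes was -0.22, and that of all genes was -0.01. From GO1 to GO2, 0 of the 8 genes were at least 2-fold higher, beside 6.83 % of 15748 genes, and 0 were at least 2-fold lower, beside 2.86 %. The median over the 8 genes was 0.11 there, and over all genes 0.02. These counts are near those of the whole table, and the differences lie between the individual genes.

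**Figure D1:**
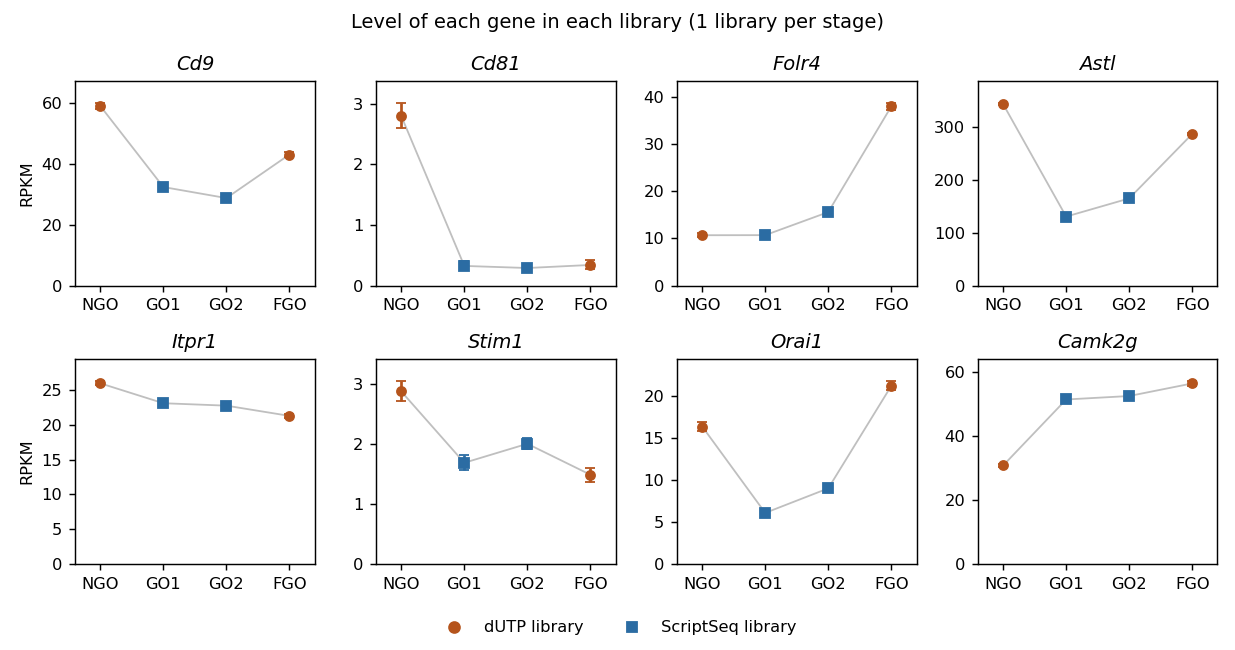
Level of each of the 8 genes in RPKM (vertical axes, each from 0) in the NGO, GO1, GO2 and FGO libraries, with circles for dUTP libraries, squares for ScriptSeq libraries and bars for 95 % Poisson intervals of the counts. Folr4 is highest in FGOs at 37.97 RPKM, Cd81 is highest in NGOs at 2.8 RPKM, and Itpr1 lies between 21.27 and 25.95 RPKM in all 4 libraries.

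Both dUTP libraries lay above both ScriptSeq libraries for 4 of the 8 genes, Cd9, Cd81, Astl and Orai1, beside 29.7 % of the 16684 genes compared. The reverse order was found for 0 of the 8, beside 21.4 % of the genes. For Cd9, Astl and Orai1 the low values in growing oocytes and the protocol of those libraries cannot be told apart. For Cd81 the order rests on 94 counts in GO1 and 93 in FGOs, whose intervals overlapped. Cd81 was thus not lower in growing oocytes than in FGOs beyond counting error. For all 8 genes, stage and protocol cannot be told apart in any step between a dUTP and a ScriptSeq library. Orders of levels given below that cross protocols, such as those of Folr4, Stim1 and Camk2g, are subject to this limit.

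Folr4 encodes the egg's receptor for Izumo1 and lies on the minus strand at chr9:14885814-14903949 (GRCm38). NGOs had 10.69 RPKM (10.3 to 11.1), GO1 had 10.71 (10.34 to 11.1), GO2 had 15.59 (15.27 to 15.92) and FGOs had 37.97 (37.25 to 38.7). NGOs and GO1 did not differ beyond their intervals, GO2 stood above both, and FGOs were highest. Among detected genes Folr4 moved from percentile 79.2 in NGOs to percentile 94.9 in FGOs. From NGOs to FGOs it was 3.68-fold higher, a log2 change of 1.88 (1.82 to 1.94) that lay at percentile 90.8 of all genes. From GO1 to GO2 the log2 change was 0.51 (0.45 to 0.57), below 2-fold but in the same direction. Folr1, a folate receptor gene of the same family, was low at all stages, from 0.01804 RPKM in GO2 to 0.4645 in NGOs. Folr2 had at most 5 counts in a library. The summed level of 10 markers of granulosa cells, the somatic cells around the oocyte, was also highest in FGOs. It was 3.034, 2.61, 5.203 and 10.64 RPKM from NGOs to FGOs, with 10, 9, 10 and 10 of 10 detected. Cyp19a1, the aromatase gene, made up most of the sum in FGOs, at 6.077 RPKM. By gene, 6 of the markers were highest in FGOs and 4 in NGOs, namely Foxl2, Amhr2, Inhba and Wt1. The granulosa factor Foxl2 was near 0 throughout, with 21, 1, 7 and 8 counts. The part of these cells in the Folr4 levels was not tested.

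Cd81 encodes a tetraspanin that acts beside Cd9 in the egg membrane and lies on the plus strand at chr7:143052739-143067934. NGOs had 2.8 RPKM (2.597 to 3.015), GO1 had 0.3266 (0.2639 to 0.3997), GO2 had 0.292 (0.2485 to 0.3409) and FGOs had 0.3425 (0.2764 to 0.4195). NGOs stood apart, and the other libraries had intervals that overlapped their neighbours in the order of levels. The change from NGOs to FGOs was 7.8-fold lower, or -2.96 on the log2 scale (-3.31 to -2.66), at percentile 2.28 of all genes. It rests on 703 counts in NGOs and 93 in FGOs. With an RPKM pseudocount of 1, which shrinks changes of low genes, the log2 change was -1.49, still past 2-fold. Between the growing stages the log2 change was -0.19 (-0.57 to 0.19), and a difference was not detectable at this depth. Stroma and theca markers had their highest sum in NGOs too, with 6.025, 0.6015, 0.6066 and 0.4442 RPKM over 10 genes, of which 9, 9, 8 and 7 were detected. Col1a1, a fibrillar collagen gene, was the most abundant of them in NGOs at 2.243 RPKM and stood at 0.01911 RPKM in FGOs. By gene, 7 of the 10 were highest in NGOs, while Nr2f2 was highest in GO1 and Star and Cyp17a1 in GO2. Blood and immune markers, 6 genes, summed to 1.982, 0.5535, 0.6479 and 0.3643 RPKM from NGOs to FGOs, led in NGOs by the globin gene Hba-a1 at 0.902 RPKM. Of these, 6, 2, 3 and 3 were detected from NGOs to FGOs, Hbb-b1 and Hba-a1 were at 0 counts in FGOs, and 5 of 6 were highest in NGOs, the exception being Csf1r. The part of these cells in the Cd81 levels was not tested, and fewer such cells and less RNA per cell cannot be told apart in pooled oocytes. R74862, a gene on the opposite strand that shares 948 bases with Cd81, was at 0.006975 RPKM or less in every library.

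Cd9 encodes the tetraspanin that eggs need for fusion, and lies on the minus strand at chr6:125460266-125494791. NGOs had 59.09 RPKM (58.09 to 60.1), GO1 had 32.45 (31.76 to 33.15), GO2 had 28.82 (28.35 to 29.3) and FGOs had 43.14 (42.32 to 43.97). No intervals overlapped, and the highest level was 2.05 times the lowest. The log2 change was -0.40 (-0.44 to -0.36) between NGOs and FGOs and -0.20 (-0.24 to -0.17) between GO1 and GO2, both below 2-fold. Cd9 was the main tetraspanin of the pair at every stage, with 95.5 % of the summed Cd9 and Cd81 RPKM in NGOs and 99.2 % in FGOs.

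Among the 13 other listed genes of the egg surface, 4 were at least 2-fold higher and 1 at least 2-fold lower from NGOs to FGOs, beside 17.7 % and 16.8 % of all genes, with a median log2 change of 0.24. The tetraspanin gene Tspan8 was higher by 3.41 on the log2 scale, from 0.05347 RPKM to 0.5987, with 9 counts in NGOs. The integrin gene Itgb5 was higher by 1.51, and Itgb3 by 1.05. Igsf8, whose product partners with Cd9 and Cd81, was higher by 1.22, from 0.6811 to 1.532 RPKM. Ezr, which links the membrane to actin in microvilli, had a log2 change of -2.07, from 4.384 to 1.004 RPKM. The integrin gene Itgb1 was at 18.28 RPKM in NGOs and 18.43 in FGOs. At this threshold 0 of the 13 were higher and 0 lower from GO1 to GO2, beside 6.83 % and 2.86 % of all genes, with a median of 0.15.

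Astl was the most abundant of the 8 genes in every library and lies on the plus strand at chr2:127338639-127357651. NGOs had 342.9 RPKM (340.7 to 345), GO1 had 130.5 (129.2 to 131.7), GO2 had 164.8 (163.7 to 165.8) and FGOs had 286.5 (284.6 to 288.4). By rank among detected genes NGOs had it as number 43, GO1 as 134, GO2 as 88 and FGOs as 62. These are percentiles 99.7, 99.2, 99.5 and 99.6 in RPKM, and by counts without gene length the lowest was percentile 98.8, in GO1. Astl was thus among the most abundant genes already in the NGO library. Its oocytes, of 10 to 40 μm, overlap in size with those of GO1, of 25 to 70 μm. No intervals of the Astl levels overlapped. From NGOs to FGOs the log2 change of Astl was -0.21 (-0.22 to -0.19), and from GO1 to GO2 it was 0.30 (0.29 to 0.32). Both are below 2-fold, in opposite directions.

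The zona pellucida gene Zp2, whose product ovastacin cleaves, stood at 2261 RPKM in NGOs and 1052 in FGOs, a log2 change of -1.05. Zp3 had a log2 change of -1.06, from 1772 to 819.8 RPKM. Zp1 changed by -0.75 and stayed below 2-fold. The Astl level was 15.2 % of that of Zp2 in NGOs and 27.2 % in FGOs, and 7.94 % in GO1 and 11.7 % in GO2. Fetub, whose product inhibits ovastacin, was at 5.157 RPKM in NGOs and 6.327 in FGOs. Over these 4 genes 0 were at least 2-fold higher and 2 at least 2-fold lower from NGOs to FGOs, beside 17.7 % and 16.8 % of all genes, with a median of -0.90. Between the growing stages 0 were higher and 0 lower, beside 6.83 % and 2.86 % of all genes, with a median of -0.02. Of 5 other astacin proteases, Tll1 was the most abundant, at 3.169 RPKM in NGOs and 6.483 in FGOs. From NGOs to FGOs 3 of them had at least 20 counts, of which 2 were higher, Tll1 and Mep1b, and 1 was lower, Bmp1 at -3.21 (-5.95 to -1.94) with 35 and 3 counts, beside 17.7 % and 16.8 % of all genes and with a median of 1.09. Between the growing stages 0 of 2 were higher and 0 lower, beside 6.83 % and 2.86 %, with a median of 0.42.

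Astl has an upstream and a downstream start in RefSeq (GRCm38.p6), and the levels do not tell them apart because they are summed over the gene. The 250 bases before each start on the plus strand are shown to compare them, with E-boxes (CANNTG) in capitals. The upstream window, at chr2:127338389-127338638, lies in the 262 bases between Astl and Dusp2, a gene on the same strand. The downstream window is chr2:127341386-127341635, inside the listed span of the gene.
Astl upstream start: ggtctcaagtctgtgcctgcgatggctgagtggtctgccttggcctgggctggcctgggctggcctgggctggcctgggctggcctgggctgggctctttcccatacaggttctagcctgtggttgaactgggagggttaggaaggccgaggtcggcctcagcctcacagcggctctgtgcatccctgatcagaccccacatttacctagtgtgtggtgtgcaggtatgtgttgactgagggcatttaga
Astl downstream start: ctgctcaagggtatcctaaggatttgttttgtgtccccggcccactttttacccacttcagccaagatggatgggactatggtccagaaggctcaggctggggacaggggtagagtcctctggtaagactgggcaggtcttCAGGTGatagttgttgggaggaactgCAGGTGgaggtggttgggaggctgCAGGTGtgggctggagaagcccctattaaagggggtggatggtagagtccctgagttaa
The upstream window held 0 E-boxes and the downstream window 3, all with the letters CAGGTG, which begin 109, 83 and 59 bases before the start. An E-box on either strand was found in 66.2 % of the 32851 promoter windows of the same length, and at least 3 copies of CAGGTG in 0.247 %, a count chosen after these were seen. Neither window held TAATTG, bound by the oocyte factor Nobox and found in 7.17 % of windows, or TATAAA, found in 12.4 %. Other sequences that Nobox may bind were not searched for. Promoters were listed for 6 of the 8 genes, and not for Itpr1 and Camk2g. Dusp2 stood at 5.787, 1.882, 1.756 and 2.896 RPKM from NGOs to FGOs.

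Itpr1 encodes the inositol trisphosphate receptor that releases calcium in eggs, and spans chr6:108213118-108551109 on the plus strand. It varied least of the 8 genes: NGOs had 25.95 RPKM (25.65 to 26.26), GO1 had 23.09 (22.82 to 23.36), GO2 had 22.74 (22.55 to 22.93) and FGOs had 21.27 (21 to 21.53). Only GO1 and GO2 had overlapping intervals, and the highest level was 1.22 times the lowest. The log2 change was -0.23 (-0.26 to -0.21) between NGOs and FGOs, and that between GO1 and GO2 was -0.06 (-0.08 to -0.03). Itpr2, the next receptor gene of the family, stood at 5.103, 9.291, 12.14 and 12.34 RPKM from NGOs to FGOs. It was higher by 1.33 on the log2 scale (1.29 to 1.36) from NGOs to FGOs. The share of Itpr1 in the summed RPKM of the receptor genes was accordingly 81.1 % in NGOs and 62.1 % in FGOs. Itpr3 stayed below 1 RPKM in each library.

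Of the 15 other genes listed for calcium release with at least 20 counts, 1 was at least 2-fold higher from NGOs to FGOs, Itpr2, and 4 were at least 2-fold lower, beside 17.7 % and 16.8 % of all genes, with a median of -0.46. Plcg2, a phospholipase C gene, had a log2 change of -1.38, from 24.22 to 8.972 RPKM. Plcb1, of the same enzyme class, had -1.07. Itpka, a kinase gene for inositol trisphosphate, had a log2 change of -3.71 and 17 counts in FGOs, and the related Itpkc had -1.56. Of 16 such genes from GO1 to GO2, 1 was higher, Plcd4 with 7 and 33 counts, and 1 was lower, Itpka again at -1.04 (-1.48 to -0.63), beside 6.83 % and 2.86 % of all genes, and the median was -0.14. The sperm phospholipase Plcz1 had 0 counts in every library.

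Stim1 encodes a calcium sensor of the endoplasmic reticulum and lies on the plus strand at chr7:102267824-102436848. NGOs had 2.876 RPKM (2.711 to 3.047), GO1 had 1.686 (1.569 to 1.81), GO2 had 2.003 (1.91 to 2.099) and FGOs had 1.487 (1.374 to 1.607). NGOs were highest, and GO1 and FGOs had overlapping intervals. From NGOs to FGOs the log2 change was -0.90 (-1.04 to -0.76), whose interval reaches the 2-fold line, and from GO1 to GO2 it was 0.21 (0.09 to 0.34). With the counts divided by 4 the latter interval was -0.03 to 0.47 and held 0. Stim2, the sister gene, stood at 4.593, 9.199, 11.99 and 9.932 RPKM and was higher by 1.17 (1.10 to 1.23) from NGOs to FGOs. Stim2 was thus above Stim1 in all libraries, and Stim1 made up 38.5 % of their summed RPKM in NGOs and 13 % in FGOs.

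Orai1 encodes the channel of the plasma membrane that Stim proteins open, and lies on the plus strand at chr5:123015074-123030450. NGOs had 16.39 RPKM (15.89 to 16.9), GO1 had 6.085 (5.804 to 6.375), GO2 had 9.013 (8.764 to 9.267) and FGOs had 21.24 (20.7 to 21.8). All intervals were separate, with FGOs highest and GO1 lowest, and the highest level was 3.49 times the lowest. Within protocols its log2 change was 0.43 (0.37 to 0.49) in FGOs over NGOs and 0.53 (0.45 to 0.61) in GO2 over GO1. The later library was thus higher in both pairs, by less than 2-fold. Orai1 held 92.5 %, 90.6 %, 94.8 % and 96.4 % of the summed RPKM of the Orai genes from NGOs to FGOs. Kdm2b, on the opposite strand, shares 7 bases with Orai1 and stood at 7.139, 15.36, 17.43 and 17.69 RPKM from NGOs to FGOs, and the part of its reads in the Orai1 levels was not tested.

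Among the 16 other genes listed for calcium entry, refilling and clearance with at least 20 counts, 2 were at least 2-fold higher from NGOs to FGOs, 1 was at least 2-fold lower, beside 17.7 % and 16.8 % of all genes, and the median was 0.11. Next to Stim2, the plasma membrane pump gene Atp2b4 was higher, by 3.05 on the log2 scale (2.83 to 3.29), from 0.1772 to 1.422 RPKM. Between the growing stages it was higher by 1.34 (1.25 to 1.45). Slc8a1, the sodium and calcium exchanger gene, was lower by this rule, with 75 counts in NGOs and 7 in FGOs. These genes, Atp2b4 higher and Slc8a1 lower, were also the only 2 of the 16 past 2-fold from GO1 to GO2, beside 6.83 % and 2.86 % of all genes, with a median of -0.06. The pump gene that fills the store, Atp2a2, stood at 71.77, 76.33, 71.58 and 77.21 RPKM and changed by 0.16 from NGOs to FGOs.

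**Figure D2:**
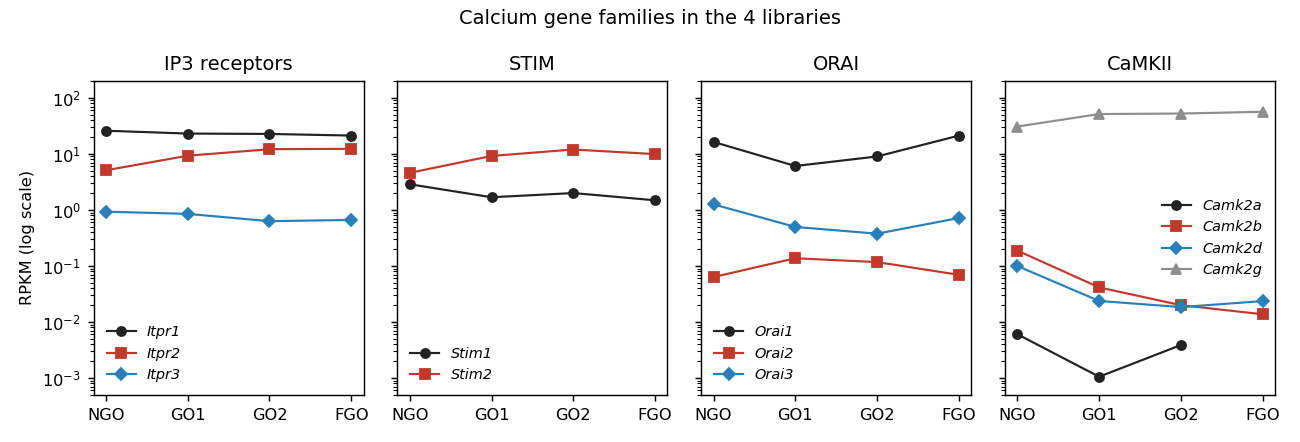
Levels in RPKM (log scale) of the genes for inositol trisphosphate receptors, STIM sensors, ORAI channels and CaMKII subunits in the 4 libraries; Camk2a is listed at 0 in FGOs and has no point there. Itpr1, Orai1 and Camk2g are the most abundant genes of their families in all 4 libraries, while Stim2 lies above Stim1, with 9.932 and 1.487 RPKM in FGOs.

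Camk2g lies on the minus strand at chr14:20734875-20794088. NGOs had 30.82 RPKM (30.28 to 31.36), GO1 had 51.49 (50.85 to 52.15), GO2 had 52.58 (52.1 to 53.05) and FGOs had 56.52 (55.83 to 57.23). NGOs were lowest, GO1 and GO2 had overlapping intervals and FGOs were highest. From NGOs to FGOs it was 1.9-fold higher, 0.93 on the log2 scale (0.90 to 0.96), just below 2-fold and at percentile 81.1 of all genes. The log2 change from GO1 to GO2 was 0.00 (-0.03 to 0.02). Camk2g was nearly the whole CaMKII family by level, with 99.1 % of the summed RPKM in NGOs and 99.9 % in FGOs. Camk2b was lower in FGOs by this rule, from 0.1883 to 0.01374 RPKM, as was Camk2d, from 0.09991 to 0.02362 RPKM. The summed level of endothelium markers followed the same order of libraries as Camk2g and Folr4, with 3.369, 7.215, 11.15 and 12.42 RPKM over 4 genes, of which 4, 3, 3 and 3 were detected. Pecam1 led them and was highest in FGOs, at 9.698 RPKM, as was Kdr, at 0.108 RPKM. Tek was highest in GO2, and Cdh5 in NGOs, with 18, 1, 0 and 0 counts from NGOs to FGOs. The part of these cells in the Camk2g and Folr4 levels was not tested.

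Of the 17 other genes listed for calcium decoding and exit from meiosis with at least 20 counts, 1 was at least 2-fold higher from NGOs to FGOs and 6 at least 2-fold lower, beside 17.7 % and 16.8 % of all genes, with a median of -0.22. From GO1 to GO2, 0 were higher and 1 was lower, Camk2b, beside 6.83 % and 2.86 %, with a median of -0.14. Fbxo43, whose product Emi2 holds the egg in meiosis until CaMKII marks it for destruction, was the higher gene, with a log2 change of 1.10 (1.05 to 1.15), from 10.51 to 21.67 RPKM. Wee2, an egg kinase gene, changed by 0.92, from 77.72 to 141.5 RPKM. The calcineurin genes Ppp3ca and Ppp3cb had log2 changes of -1.77 and -1.70, the kinase gene Camk4 -1.21, and the calmodulin gene Calm3 -1.19, though reads of near-identical copies may not be told apart.

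**Figure D3:**
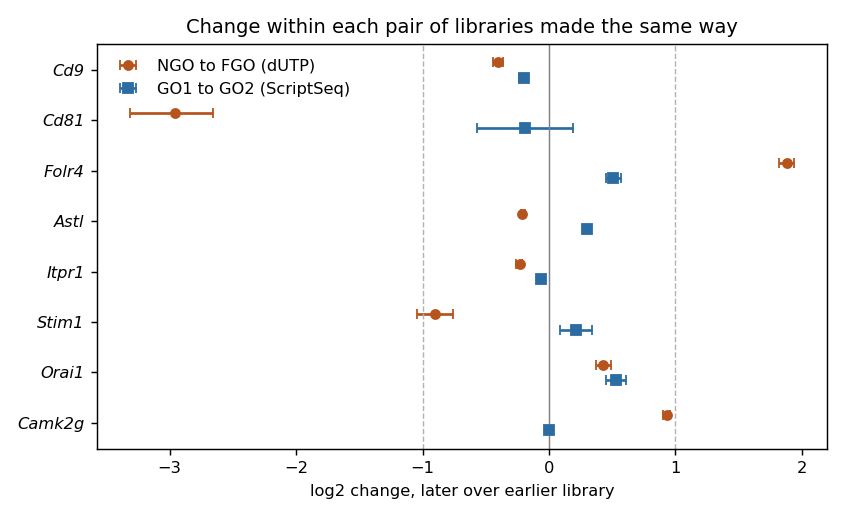
Log2 change of each of the 8 genes (horizontal axis, later over earlier library) between NGOs and FGOs (circles) and between GO1 and GO2 (squares), with bars for 95 % binomial intervals and dashed lines at 2-fold. Folr4 at 1.88 and Cd81 at -2.96 lie outside the lines from NGOs to FGOs, and no gene does from GO1 to GO2.

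Over all 7 lists of egg genes, which include the 8, 97 genes had at least 20 counts from NGOs to FGOs, and 15.5 % of them were at least 2-fold higher and 16.5 % at least 2-fold lower, with a median log2 change of -0.21. Over all genes the shares were 17.7 % and 16.8 %, so the lists lay near the background at this setting. From GO1 to GO2, 3.09 % were higher and 3.09 % lower, beside 6.83 % and 2.86 % of all genes, with a median of -0.05. Among the 21 genes of cortical granule exocytosis with at least 20 counts, 5 were higher and 1 was lower from NGOs to FGOs, beside 17.7 % and 16.8 % of all genes, with a median of -0.39. The actin nucleator gene Spire2 was highest among those with at least 100 counts, at 2.57, and Syt7 and Fmn2 changed by 1.06 and 1.02. The vesicle gene Rab3a was the lower one, at -1.11. Of 20 such genes between GO1 and GO2, 1 was higher, Spire2 at 1.15, and 0 were lower, beside 6.83 % and 2.86 % of all genes, with a median of -0.06. Fmn2 went the other way there, at -0.46 (-0.50 to -0.43). Of 3 zinc transporter genes 1 was higher from NGOs to FGOs, Slc39a10 by 1.45, from 18.12 to 47.79 RPKM, and 0 were lower, beside the same shares, with a median of 0.34. Between GO1 and GO2 0 of the 3 were higher and 0 lower, beside 6.83 % and 2.86 %, with a median of -0.03.

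The profiles most like each gene's were sought over the 4 libraries among 10753 genes, as the smallest root mean square difference of centred log2 values. They span both protocols, so likeness in stage and likeness in response to the protocol cannot be told apart. Nearest to Folr4 were Gpr1, Acoxl and Mei4, with differences of 0.053, 0.071 and 0.080, and Gpr1 stood at 11.96, 11.66, 15.79 and 41.38 RPKM from NGOs to FGOs. Nearest to Cd81 were Fkbp6, Acy1 and H2-K1, with a difference of 0.099 for Fkbp6, although Cd81 itself had fewer counts in GO1 and FGOs than the 100 asked of the genes compared. The closest gene was Polr2h for Cd9, Plekhj1 for Astl, Gcc1 for Itpr1, Hip1 for Stim1, Gm6189 for Orai1 and Fignl1 for Camk2g. Within a difference of 0.25, wider than that of any closest gene, lay 1629 genes for Cd9, 1047 for Astl and 2830 for Itpr1. There were 1118 for Stim1, 422 for Orai1 and 1382 for Camk2g, beside 123 for Folr4 and 18 for Cd81.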

How the data were processed

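Per the submitters' processing notes, the authors trimmed reads with Trim Galore 0.2.8 and mapped them to GRCm38 with TopHat2 2.0.9, and deposited RPKM per gene, although the deposit is named for read counts. The study describes its libraries as strand-specific and its reference as Ensembl, UCSC and RefSeq models merged, but whether that reference and a strand setting were used for the deposited RPKM is not given, so reads of overlapping genes may not be told apart. Library totals were fitted on 943 genes with 1 exon in GENCODE M21 to turn RPKM into whole numbers of reads. At least 99.7 % of their 331 to 456 values above 0 per library came out whole, within 0.0005 plus 1.5e-07 of the count. Exon lengths of other genes were chosen the same way, and where a length is wrong the counts are off by the same factor in all libraries. Changes used a trimmed mean of log ratios (trims of 30 % and 5 %), a prior count of 1, at least 20 counts in the pair and a threshold of 2-fold, run in Python 3.11.15 (scipy 1.17.1, numpy 2.4.6 and pandas 2.3.3; plots by matplotlib 3.10.9), and the steps were tested on simulated data. The design had provided for counts recovered in this way. Similar profiles were sought after adding 0.1 to RPKM, among genes that had 100 counts or more in each library, and the nearest 3 were considered. Other genes named are family members, or list genes past the threshold whose higher library had 100 counts or more; those named outside this rule, such as Itgb1, Wee2, Atp2a2 and Slc8a1, were chosen after their values were seen. The 8 genes and the lists were chosen with earlier results of these data known. Alternatives were other scalings, pseudocounts, count minimums, thresholds, thinning, counts without gene length and, added after seeing the data, counts divided by 2 and by 4. A gene of the calcium decoding list is counted in its list, and its own values are not reported here.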

Additional observations from a re-analysis of the deposited data

How the results depend on the processing

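Of 105 recalculated log2 changes of the 8 genes, under other scalings, RPKM pseudocounts of 0.1 and 1, thinning to the smallest library and counts divided by 2 and by 4 (chosen after seeing the data), 105 kept their direction. Camk2g from GO1 to GO2 is left out of this count, since its change lay between -0.02 and 0.03 under the alternatives. Folr4 stayed past 2-fold from NGOs to FGOs in 7 of 7 such recalculations, between 1.79 and 1.89, and Cd81 in 7 of 7, between -3.06 and -1.49, the latter with a pseudocount of 1, which shrinks changes of low genes. At 4-fold, 0 of the 8 genes were higher from NGOs to FGOs (all genes: 8.57 %). Of 97 genes of the 7 egg lists (103 with no count minimum, 89 with a minimum of 100), 15 were higher from NGOs to FGOs (share of all genes at the same setting 17.7 %), but 7 with a pseudocount of 1 (6.22 %) and 5 at 4-fold (8.57 %), and 16 were lower (16.8 %), but 8 (4.42 %) and 6 (5.53 %). From GO1 to GO2, 3 were higher (6.83 %), but 0 with a pseudocount of 1 (0.324 %), 6 with no count minimum (9.4 %) and 0 at 4-fold (1.51 %), and 3 were lower (2.86 %), but 0 with a pseudocount of 0.1 (0.806 %), 0 with a pseudocount of 1 (0.229 %), 5 with no count minimum (5.6 %), 1 with a minimum of 100 counts (1.62 %) and 0 at 4-fold (0.254 %). Intervals that left out 0 numbered 14 of 16, 14 with the counts divided by 2 and 13 with the counts divided by 4, where Stim1 from GO1 to GO2 held 0. The depth limits Cd81 most, with 93 to 160 counts outside NGOs.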

Other observations

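Genes known for their work in sperm were looked up in the same libraries, since eggs are not the usual place for them. Of 14 listed, 13 were found, and 6 had at least 3 counts in some library, beside 74.4 % of all genes. Plcz1, Tmem95, Spaca4, Acr, Prm1 and Tnp1 had 0 counts in all 4. Spam1, which encodes a hyaluronidase of the sperm surface, stood at 0.8445, 5.802, 7.213 and 5.818 RPKM from NGOs to FGOs, so that it was above Stim1 in the last 3. Its log2 change from NGOs to FGOs was 2.83 (2.62 to 3.06). Prm2, a protamine gene, had 17, 74, 389 and 122 counts from NGOs to FGOs, with Prm1 and Tnp1 at 0. Zpbp, for a protein that binds the zona, went the other way, with 389, 132, 108 and 26 counts. Izumo1, the partner of Juno, had 17, 7, 0 and 1 counts. Whether these reads come from the annotated transcripts was not tested.

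Mep1b, an astacin protease gene like Astl, was at 0.1701 RPKM in NGOs and 1.112 in FGOs, with a log2 change of 2.74 (2.30 to 3.26), while Bmp1 of the same family was lower by 3.21, on 35 and 3 counts.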
